A study of Mus musculus with 4 samples.

Results

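The 7 mt-Nd genes are the subunits of respiratory complex I that are encoded in the mitochondrial DNA. They were taken by symbol (mt-Nd1, mt-Nd2, mt-Nd3, mt-Nd4, mt-Nd4l, mt-Nd5 and mt-Nd6) from the deposited count tables, and are 7 of the 37 mitochondrial features and of 56748 gene IDs in all. The samples were lymph nodes of 4 mice with EAE (experimental autoimmune encephalomyelitis), a model of multiple sclerosis in which immune cells attack the myelin of brain and spinal cord. The BrQ group was 2 mice given BrQ (2-bromo-1,4-naphthalenedione, a quinone carrying a bromine atom), and the Vehicle group was 2 control mice, called vehicle in the sample names. Strain, sex, age, dose, time and the way EAE was induced are not stated in the labels, and no genotype is named for either group. Each mouse gave 1 library of total RNA, numbered 1 and 3 in each group. There were 6992223 and 6813832 reads on gene rows in BrQ replicates 1 and 3, against 7315568 and 7989226 in Vehicle replicates 1 and 3.

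Complex I, or NADH:ubiquinone oxidoreductase, is the entry point of electrons from NADH into the respiratory chain. It passes electrons to ubiquinone and pumps protons across the inner mitochondrial membrane. The mt-Nd proteins form the core of its membrane arm, while the subunits that bind NADH and carry the iron-sulfur clusters are encoded in the nucleus. Mitochondrial genes are transcribed as long RNAs from both strands of a circular DNA and are then cut apart, so their messenger RNAs begin from shared precursors. Activated lymphocytes depend on respiration for growth and division.

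Names of nuclear genes in these tables often stood on rows without the reads such genes would give. Of 37 nuclear complex I subunits, proteins made in nearly every cell, 12 had 0 reads in all 4 libraries and the median was 0.75 reads per library. The B cell gene Ms4a1 and the stromal chemokine Ccl21a also had 0 reads throughout, while the B cell genes Pax5 and Cd72 held between 7952 and 13917 reads in each library. The lymph node identity could therefore not be checked in full from its markers (7 of the 21 markers looked up averaged 100 reads or more). All 37 mitochondrial IDs were found on the mitochondrial chromosome of GENCODE M21 (GRCm38), and each of its 13 protein genes held reads in every library. The labels do not say which gene positions the counting used.

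The layout of the genes bears on how their reads could be counted, and the sequences at the junctions are shown for that reason. mt-Nd6 lies on the minus strand and the other 6 genes on the plus strand. The end of mt-Nd5 (chrM:13506-13565, plus) and the end of mt-Nd6 (chrM:13552-13611, minus) overlap by 14 bases on opposite strands, and capitals mark the shared bases.
mt-Nd5 end: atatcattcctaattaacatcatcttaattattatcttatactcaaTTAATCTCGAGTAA
mt-Nd6 end: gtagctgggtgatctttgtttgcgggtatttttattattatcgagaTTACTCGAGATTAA
The end of mt-Nd4l (chrM:10114-10173) and the start of mt-Nd4 (chrM:10167-10226), both on the plus strand, overlap by 7 bases, in capitals. In mammals these genes are read from a shared bicistronic messenger RNA.
mt-Nd4l end: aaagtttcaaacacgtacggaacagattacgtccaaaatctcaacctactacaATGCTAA
mt-Nd4 start: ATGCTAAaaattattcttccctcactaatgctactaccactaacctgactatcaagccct
The strand also shows in the base composition, which is seen in the starts of mt-Nd1 (chrM:2751-2840, plus) and mt-Nd6 (chrM:13981-14070, minus), with every G in capitals.
mt-Nd1 start: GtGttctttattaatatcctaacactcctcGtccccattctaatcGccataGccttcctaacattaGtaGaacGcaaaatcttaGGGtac
mt-Nd6 start: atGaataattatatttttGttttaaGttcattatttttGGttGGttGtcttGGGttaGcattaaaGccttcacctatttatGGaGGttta
G made up 28.1% of mt-Nd6, read on its own strand, against 8.00% (mt-Nd2) to 11.6% (mt-Nd1) of the other 6 genes.

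Near-identical copies of mitochondrial DNA in the nuclear genome can take reads from these genes, so each was compared with all annotated nuclear transcripts. Copies outside these transcripts, or on the strand opposite to them, were not sought. The first 876 of the 1378 bases of mt-Nd4 were identical to Gm28439, an unprocessed pseudogene on chromosome 1 (24611535 to 24612410, minus strand, GRCm38). Beside it, Gm10222 (24612407 to 24612700) was identical to 294 of the 297 bases of mt-Nd4l, and Gm28438 (24612775 to 24613119) to 344 of the first 345 bases of mt-Nd3. The sequence of mt-Nd4 where its nuclear copy ends (chrM:11003-11082) is shown with the bases beyond the copy in capitals.
mt-Nd4: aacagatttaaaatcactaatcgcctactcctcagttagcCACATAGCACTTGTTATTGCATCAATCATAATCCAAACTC
The only difference between mt-Nd3 and Gm28438 over the aligned bases was T3C, counted from the first base of the gene, in capitals in the first 43 bases of each (chrM:9459-9501, plus, and chr1:24613077-24613119, minus).
mt-Nd3: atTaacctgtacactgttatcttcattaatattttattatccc
Gm28438: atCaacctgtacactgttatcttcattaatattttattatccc
The other genes had weaker matches, though that of mt-Nd6 spanned all 519 bases of the gene, at 93.6% identity. The longest identical run was 129 bases for mt-Nd2 (Gm13339), 95 for mt-Nd5 (Gm11407), 39 for mt-Nd6 (Gm11408) and 19 for mt-Nd1 (Gm20462). Each of these 7 pseudogenes had 0 reads in all 4 libraries, though nuclear names may not sit on their own reads, and the files list 0 reads as not uniquely aligned.

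All 7 mt-Nd genes were lower in BrQ lymph nodes than in Vehicle lymph nodes, by between 2.51-fold (mt-Nd5 and mt-Nd3) and 3.47-fold (mt-Nd4l). Summed, they took 4.53% and 3.24% of gene reads in BrQ replicates 1 and 3, against 6.13% and 9.46% in Vehicle replicates 1 and 3. The groups did not overlap, but the difference in this share, 3.89% ± 0.910 against 7.79% ± 2.35 (SD, n = 2 each), had an exact permutation p of 0.333 (two-sided), the lowest value possible with 2 libraries a group. The difference of -3.91 percentage points (BrQ minus Vehicle) became -2.24 without Vehicle replicate 3. Gene reads were a small part of all read rows, which include rows that name no gene. Of all read rows the 7 genes took 0.510% and 0.357% in BrQ replicates 1 and 3. Vehicle replicates 1 and 3 had 0.736% and 1.23%, a difference of -0.548 points (BrQ minus Vehicle). Less mitochondrial RNA per cell and fewer cells rich in it cannot be told apart in whole tissue.

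mt-Nd1 forms part of the channel through which ubiquinone enters the complex. Its level, in TMM-scaled counts per 1000000 gene reads (CPM), was 11891 and 8540 in BrQ replicates 1 and 3, against 19028 and 34658 in Vehicle replicates 1 and 3. Both BrQ libraries lay below both Vehicle libraries, and the highest library was Vehicle replicate 3. The log2 fold change was -1.39 ± 0.26 (SE), with an adjusted p of 0.00214 by edgeR's quasi-likelihood test over all features tested. mt-Nd3, whose loop lies beside the ubiquinone site, was read far less, at 24.6 and 15.1 CPM in BrQ replicates 1 and 3 and 33.3 and 66.6 CPM in Vehicle replicates 1 and 3. These levels rest on 195 and 117 reads in BrQ and 230 and 435 reads in Vehicle, and Vehicle replicate 1 was closer to BrQ replicate 1 than to Vehicle replicate 3. Its log2 fold change was -1.33 ± 0.33 (SE, adjusted p = 0.0100, edgeR).

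mt-Nd2, mt-Nd4 and mt-Nd5 are the antiporter-like subunits, each thought to form a path for protons. mt-Nd5 was at 11087 and 8480 CPM in BrQ replicates 1 and 3, against 18208 and 30895 CPM in Vehicle replicates 1 and 3. mt-Nd4 was at 7978 and 5138 CPM in BrQ replicates 1 and 3, against 13092 and 22978 CPM in Vehicle replicates 1 and 3. mt-Nd2 was at 6198 and 4634 CPM in BrQ replicates 1 and 3, against 10484 and 18809 CPM in Vehicle replicates 1 and 3. For each of these genes the libraries stood in the same order, with BrQ replicate 3 lowest, then BrQ replicate 1, Vehicle replicate 1 and Vehicle replicate 3. The log2 fold changes of mt-Nd2, mt-Nd4 and mt-Nd5 were -1.44 ± 0.25, -1.46 ± 0.26 and -1.33 ± 0.23 (SE), with adjusted p of 0.00153, 0.00201 and 0.00159 (edgeR).

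mt-Nd4l and mt-Nd6 are small subunits of the membrane arm that lie between the ubiquinone end and the antiporter-like subunits. mt-Nd4l was at 13.6 and 8.88 CPM in BrQ replicates 1 and 3, against 26.7 and 51.6 CPM in Vehicle replicates 1 and 3. With 108 and 69 reads in BrQ and 184 and 337 reads in Vehicle it was the gene with the fewest reads, and its log2 fold change of -1.79 ± 0.34 (SE, adjusted p = 0.00246, edgeR) was the largest of the 7. mt-Nd6 was at 2691 and 1601 CPM in BrQ replicates 1 and 3, against 4083 and 8168 CPM in Vehicle replicates 1 and 3. Again the groups did not overlap, and its log2 fold change was -1.51 ± 0.31 (SE, adjusted p = 0.00367, edgeR).

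**Figure D1:**
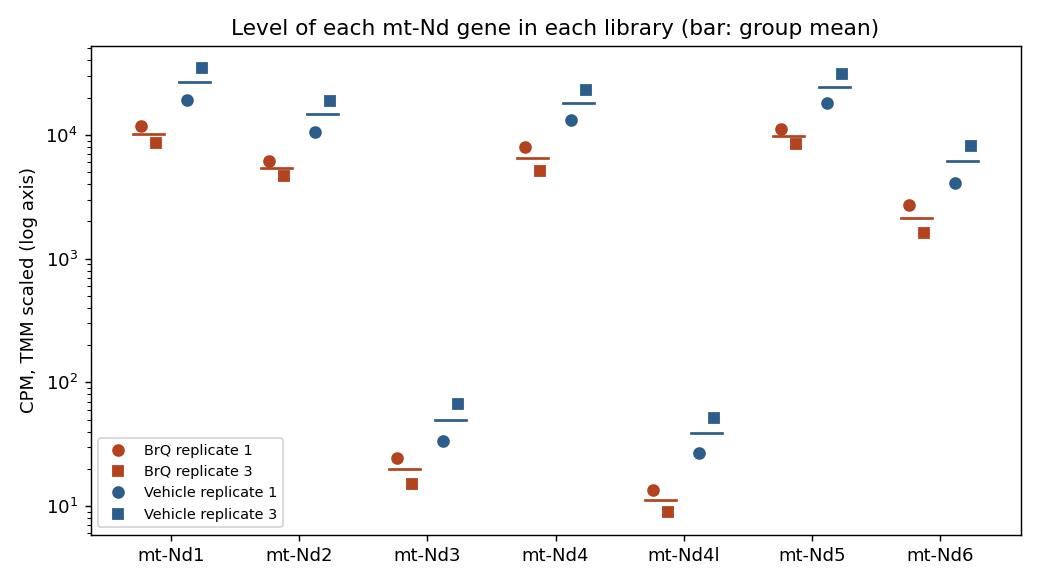
Level of each mt-Nd gene in CPM (TMM scaled, log axis) in each of the 4 libraries, with a bar at the mean of each group. Both BrQ libraries lie below both Vehicle libraries for all 7 genes, and mt-Nd3 and mt-Nd4l lie at 8.88 to 66.6 CPM, far below the other 5.

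All 7 genes were called lower at an adjusted p under 0.05, in a comparison in which 45.7% of the 10223 features tested were called, 22.2% lower and 23.6% higher in BrQ. Both BrQ libraries lay below both Vehicle libraries for 7 of 7 genes, and for 36.2% of all features tested. The median log2 fold change was -1.44 over the 7 genes and 0.05 over all features tested. The other 16 mitochondrial features tested had a median of -1.54, with 15 called lower and 0 higher by edgeR.

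Some markers of the cell types a lymph node can hold also differed between the groups. Of the 21 markers looked up, 11 were tested, with a median log2 fold change of -0.22. edgeR called 3 of the 11 lower (Cd4, Cd72 and Il7r) and 1 higher (Cd79b). Over all features tested it called 45.7%, 22.2% lower and 23.6% higher, so calls were not particular to the markers. The 6 T cell markers summed to 811 and 894 CPM in BrQ replicates 1 and 3, against 1284 and 1370 CPM in Vehicle replicates 1 and 3. The 6 B cell markers summed to 2120 and 2177 CPM in BrQ replicates 1 and 3, against 3284 and 3403 CPM in Vehicle replicates 1 and 3. Both sums were lower in BrQ, with no overlap between groups, in TMM and in each other scaling tried except that to mitochondrial reads, where they were higher in BrQ by 0.57 (T cells) and 0.56 (B cells) on the log2 scale and overlapped. Il7r lost its call with unscaled gene reads (-0.23, adjusted p = 0.276, edgeR). Scaled to mitochondrial reads, Cd4 (-0.29), Cd72 (0.19) and Il7r (0.62) were not called by edgeR, while Cd79b stayed called higher in each scaling. Cd4, the coreceptor of helper T cells, had a log2 fold change of -1.49 ± 0.14 (SE, adjusted p = 9.11e-05, edgeR), while Cd3e, a chain of the T cell receptor complex, was at -0.0048 ± 0.14 (adjusted p = 0.981, edgeR). Cd72, a B cell surface protein, had -1.01 ± 0.12 (adjusted p = 0.000285, edgeR), while Cd79b, a chain of the B cell receptor complex, had 0.81 ± 0.26 (adjusted p = 0.0279, edgeR) and Pax5 -0.22 ± 0.12 (adjusted p = 0.155, edgeR). The stromal, myeloid and muscle markers each summed to between 0 and 20.5 CPM in every library, and both fat markers, Adipoq and Lep, had 0 reads. The part of cell types in the lower mt-Nd levels was not tested.

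The spread within the groups was close to the gap between them. The level in Vehicle replicate 3 was between 1.70 times (mt-Nd5) and 2.00 times (mt-Nd6 and mt-Nd3) that in Vehicle replicate 1. The level in Vehicle replicate 1 was between 1.36 times (mt-Nd3) and 1.96 times (mt-Nd4l) that in BrQ replicate 1. For 6 of the 7 genes the gap between the 2 Vehicle libraries was the wider of these. BrQ replicate 1 stood between 1.31 times (mt-Nd5) and 1.68 times (mt-Nd6) above BrQ replicate 3.

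Leaving out a library therefore moved the values. Without Vehicle replicate 3, the library with most mitochondrial reads, the median log2 fold change was -0.94 and 6 of 7 genes were called lower by edgeR (background 14.4%), mt-Nd3 losing the call at -0.76 (adjusted p = 0.0874, edgeR). Without BrQ replicate 3 the median was -1.17 and 5 of 7 were called lower (background 8.37%), mt-Nd3 losing it at -1.01 (adjusted p = 0.105, edgeR) and mt-Nd6 at -1.18 (adjusted p = 0.0503, edgeR). With no filter on low counts 2 of 7 genes, mt-Nd2 and mt-Nd5, were called lower (background 5.58%), while the log2 fold changes stayed between -1.76 (mt-Nd4l) and -1.29 (mt-Nd5). A group with a library left out is 1 mouse, assumed to vary like the other group.

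**Figure D2:**
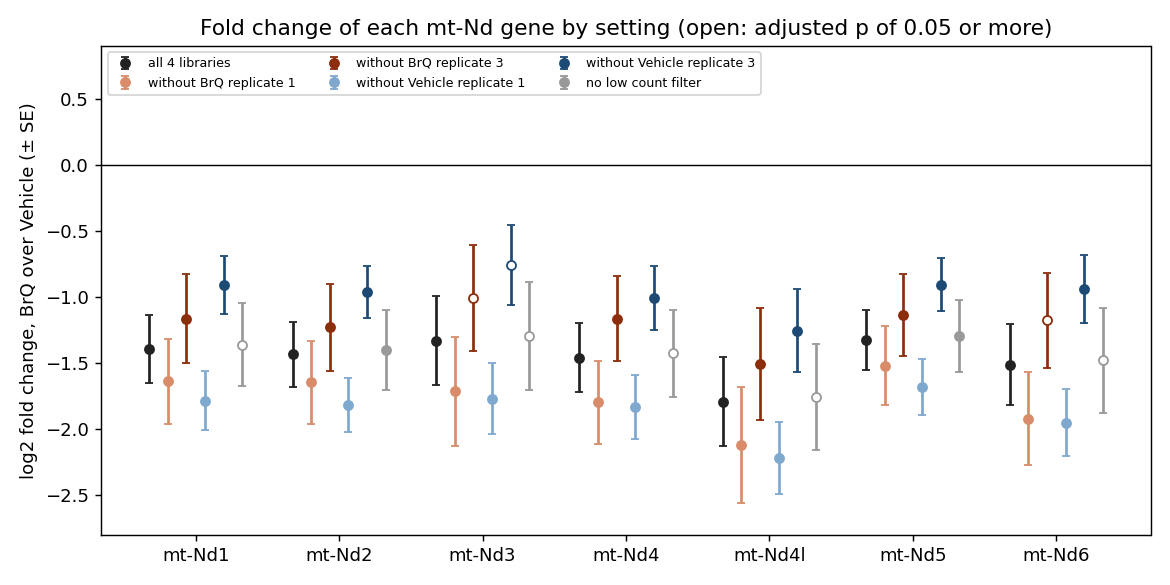
Log2 fold change (BrQ over Vehicle, ± SE) of each mt-Nd gene with all 4 libraries, with each library left out and with no filter on low counts; open points have an adjusted p of 0.05 or more by edgeR. Every value is below 0, and the values without Vehicle replicate 3 are the nearest to it.

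Levels of different genes are compared per length, in CPM per kb of gene. mt-Nd1 was highest in all 4 libraries, at 10675 ± 2475 CPM per kb in BrQ and 28049 ± 11549 CPM per kb in Vehicle (each ± the SD of 2 libraries, here and in the next sentences). mt-Nd2 followed at 5217 ± 1065 CPM per kb in BrQ and 14110 ± 5672 in Vehicle, and mt-Nd5 at 5364 ± 1011 in BrQ and 13460 ± 4918 in Vehicle. The libraries of each group did not overlap between mt-Nd1 and mt-Nd2. mt-Nd2 and mt-Nd5 changed places, mt-Nd5 being above mt-Nd2 in both BrQ libraries and below it in both Vehicle libraries. Each gap was smaller than the spread between libraries. The levels of mt-Nd2 and mt-Nd5 rose and fell together over the libraries, so that spread does not judge their order, which was not tested. mt-Nd4 came next at 4759 ± 1457 CPM per kb in BrQ and 13088 ± 5073 in Vehicle, and then mt-Nd6 at 4135 ± 1486 in BrQ and 11803 ± 5566 in Vehicle. The gaps between neighbours from mt-Nd2 to mt-Nd6 were smaller than the spread between libraries, but these genes also rose and fell together. That spread therefore does not judge their order, which was not tested. Within each of the 4 libraries mt-Nd2 and mt-Nd5 were both above mt-Nd4, and mt-Nd4 was above mt-Nd6.

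mt-Nd3 and mt-Nd4l stood apart. mt-Nd3 was at 56.9 ± 19.3 CPM per kb in BrQ and 144 ± 67.5 in Vehicle, and mt-Nd4l at 37.8 ± 11.2 in BrQ and 132 ± 59.3 in Vehicle. mt-Nd3 was above mt-Nd4l in each library, on few reads of either gene, and this order was not tested. Both genes were matched by the nuclear copies over nearly their whole length, as shown in the sequences above, and mt-Nd4 over its first 876 bases. If the reads of mt-Nd4 are set against the 502 bases outside its copy alone, its level becomes 13063 ± 4000 CPM per kb in BrQ and 35926 ± 13926 in Vehicle, above mt-Nd1 in 4 of 4 libraries. The neighbours upstream, mt-Co2 and mt-Co3 (subunits of cytochrome c oxidase) and mt-Atp6 and mt-Atp8 (of ATP synthase), were also low, with group means of 15.8 to 266 CPM per kb in BrQ and 204 to 949 in Vehicle. Whether reads lost to nuclear copies set these low levels was not tested, and the reads of mt-Nd3, mt-Nd4l and mt-Nd4 are uncertain for this reason. Loss of reads from the other mt-Nd genes to their weaker matches was not tested either.

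**Figure D3:**
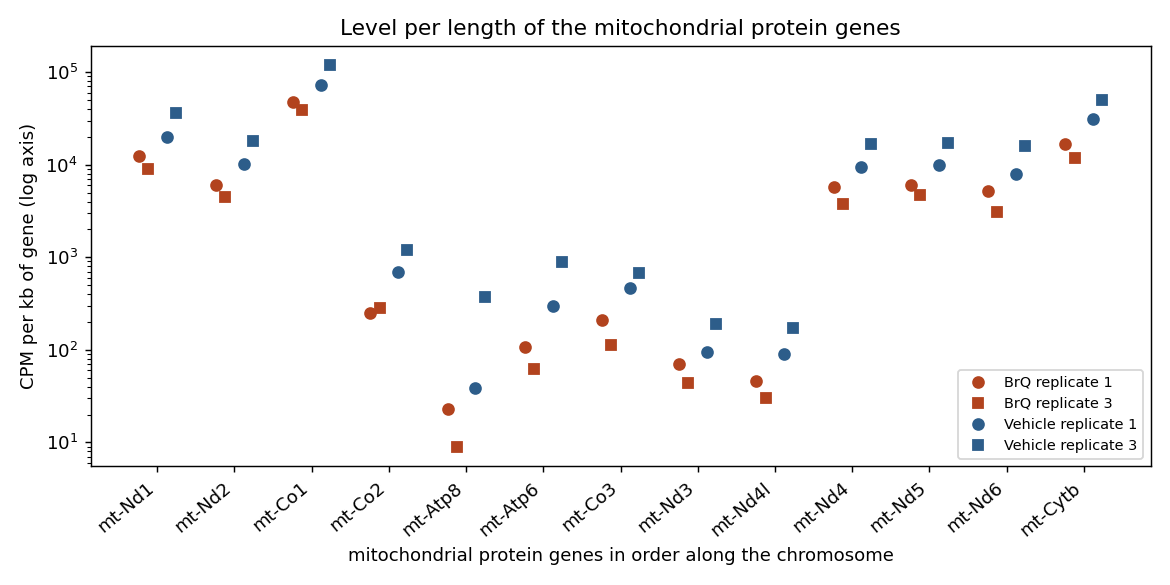
Level per length (CPM per kb of gene, log axis) of the 13 mitochondrial protein genes, in their order along the chromosome, in each of the 4 libraries. mt-Nd3 and mt-Nd4l belong to a run of 6 neighbouring genes, from mt-Co2 to mt-Nd4l, at 8.83 to 1203 CPM per kb, while the others lie at 3084 or more.

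The mt-Nd genes together took 28.7% and 26.8% of all mitochondrial reads in BrQ replicates 1 and 3, against 29.7% and 31.3% in Vehicle replicates 1 and 3. The BrQ mean was 27.7% ± 1.40 and the Vehicle mean 30.5% ± 1.08 (SD, n = 2 each, p = 0.333, exact permutation test, two-sided, the smallest possible). The difference of -2.76 percentage points (BrQ minus Vehicle) became -1.77 without BrQ replicate 3. Most of the remainder was mt-Co1, a subunit of cytochrome c oxidase, which took 53.6% and 56.9% of mitochondrial reads in BrQ replicates 1 and 3 and 50.9% and 49.8% in Vehicle replicates 1 and 3. Without mt-Co1 in the denominator the difference turned round, to 62.0% ± 0.153 in BrQ and 61.4% ± 1.20 in Vehicle (SDs of 2 libraries, p = 1, exact permutation test, two-sided). The share of the mt-Nd genes among the other mitochondrial reads thus differed by less than the spread between the Vehicle libraries.

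Each gene's share of mitochondrial reads moved little beside the change in its level. mt-Nd1 took 8.57% and 8.04% in BrQ replicates 1 and 3, against 8.71% and 9.37% in Vehicle replicates 1 and 3. mt-Nd5 took 7.99% and 7.98% in BrQ replicates 1 and 3, against 8.34% and 8.35% in Vehicle replicates 1 and 3. mt-Nd4 took 5.75% and 4.84% in BrQ replicates 1 and 3, against 5.99% and 6.21% in Vehicle replicates 1 and 3. These genes and mt-Nd2 and mt-Nd4l did not overlap between groups, while mt-Nd3 and mt-Nd6 did. How often other features were separated on this measure was not counted, so these 5 genes cannot be set against a background. mt-Nd2 took 4.47% and 4.36% in BrQ replicates 1 and 3, against 4.80% and 5.09% in Vehicle replicates 1 and 3. mt-Nd4l took 0.00980% (95% Wilson interval 0.00812 to 0.0118) and 0.00836% (0.00660 to 0.0106) in BrQ replicates 1 and 3, against 0.0122% (0.0106 to 0.0141) and 0.0139% (0.0125 to 0.0155) in Vehicle replicates 1 and 3. Its intervals in BrQ replicate 1 and Vehicle replicate 1 overlapped, and such intervals cover counting error only. mt-Nd3 took 0.0177% and 0.0142% in BrQ replicates 1 and 3, against 0.0153% and 0.0180% in Vehicle replicates 1 and 3. mt-Nd6 took 1.94% and 1.51% in BrQ replicates 1 and 3, against 1.87% and 2.21% in Vehicle replicates 1 and 3. Over the 7 shares the two-sided exact permutation tests gave p = 0.333 for 5 genes and p = 0.667 for mt-Nd3 and mt-Nd6, or 0.467 and 0.667 after Benjamini-Hochberg adjustment over the 7.

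**Figure D4:**
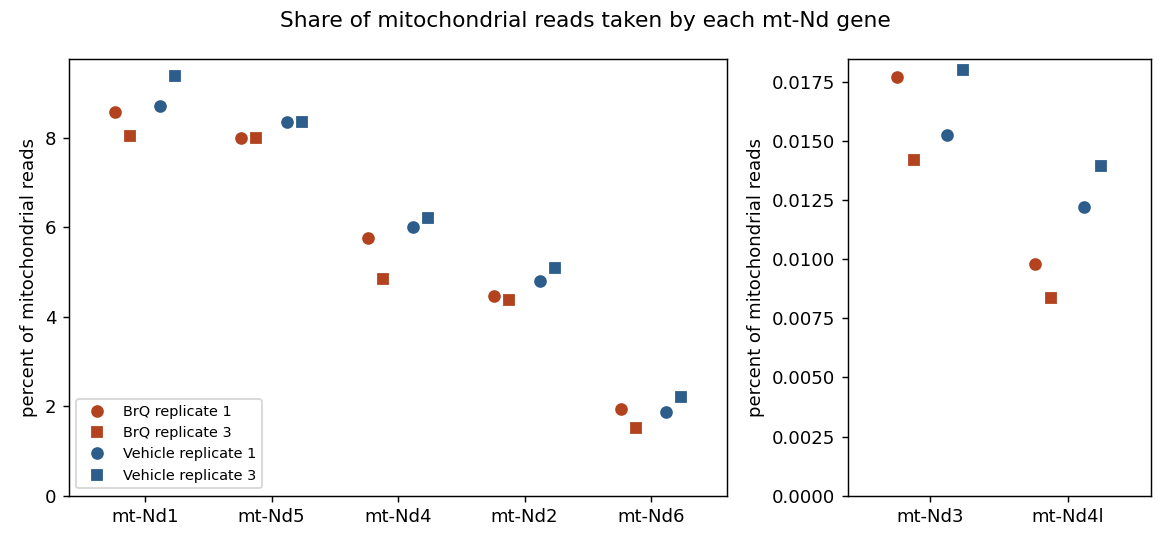
Percent of all mitochondrial reads taken by each mt-Nd gene in each of the 4 libraries, with mt-Nd3 and mt-Nd4l on an axis of their own. mt-Nd1 (8.04% to 9.37%) and mt-Nd5 (7.98% to 8.35%) are the largest, and the groups overlap for mt-Nd3 and mt-Nd6.

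Scaling each library to its mitochondrial reads, a choice made after seeing the data, gave log2 fold changes between -0.53 (mt-Nd4l) and -0.06 (mt-Nd3 and mt-Nd5). None of the 7 was called by edgeR or by limma voom in that scaling, and 0 had an unadjusted p under 0.05 with either tool (edgeR called 49.6% of all features in either direction and 0.274% lower). The mt-Nd genes were themselves 26.8% to 31.3% of those mitochondrial reads, and most other mitochondrial features were lower too. Small fold changes were thus largely built in, and the lack of calls does not test the level of the genes. That scaling moved the median of all features to 1.28 on the log2 scale, and the 7 genes' median of -0.16 minus that of all features was -1.44. The same difference was between -1.49 and -1.46 under each other scaling tried. A change of scaling shifts all features by about the same amount. This difference could therefore hardly move, and it does not judge between the scalings. The median of all features was itself 0.42 with unscaled gene reads and 0.26 with all read rows as the library size.

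mt-Nd6 is the mt-Nd gene transcribed from the opposite strand. Its reads were 6.75% and 5.63% of the summed mt-Nd reads in BrQ replicates 1 and 3, against 6.29% and 7.06% in Vehicle replicates 1 and 3. The log2 ratio of mt-Nd6 to the summed reads of the other 6 was -3.79 and -4.07 in BrQ replicates 1 and 3, against -3.90 and -3.72 in Vehicle replicates 1 and 3. The groups overlapped, since BrQ replicate 1 lay above Vehicle replicate 1. The difference of -0.12 between the BrQ mean of -3.93 ± 0.20 and the Vehicle mean of -3.81 ± 0.13 (SD, n = 2 each) was smaller than the spread within BrQ (p = 0.667, exact permutation test, two-sided), and turned to 0.02 without BrQ replicate 3. Against mt-Nd5, the gene it overlaps, the log2 ratio was -2.04 and -2.41 in BrQ replicates 1 and 3 and -2.16 and -1.92 in Vehicle replicates 1 and 3 (p = 0.667, exact permutation test, two-sided). The ratios to the genes with few reads separated the groups, in opposite directions. Against mt-Nd3 the log2 ratio was 6.78 and 6.73 in BrQ replicates 1 and 3 and 6.94 and 6.94 in Vehicle replicates 1 and 3, and against mt-Nd4l it was 7.63 and 7.49 in BrQ replicates 1 and 3 and 7.26 and 7.31 in Vehicle replicates 1 and 3 (p = 0.333 each, exact permutation test, two-sided). None of the 9 ratios computed could reach 0.05 in this test, whose smallest p with 2 libraries a group is 0.333, and no other test of the ratios was run.

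The labels do not say whether the counting used strand. The mitochondrial transfer RNA genes, short genes that lie end to end with their neighbours, show how reads were assigned. Of the 14 on the plus strand, where most neighbours are also on that strand, 12 had 0 reads in all 4 libraries and 1 reached 10 reads in each. Of the 8 on the minus strand, 6 reached 10 reads in each library. mt-Ts1, a minus-strand transfer RNA gene between plus-strand genes, held 580 and 427 reads in BrQ replicates 1 and 3 and 577 and 1778 in Vehicle replicates 1 and 3. Whether the reads counted as mt-Nd6 all came from its own strand cannot be told from these files.

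**Figure D5:**
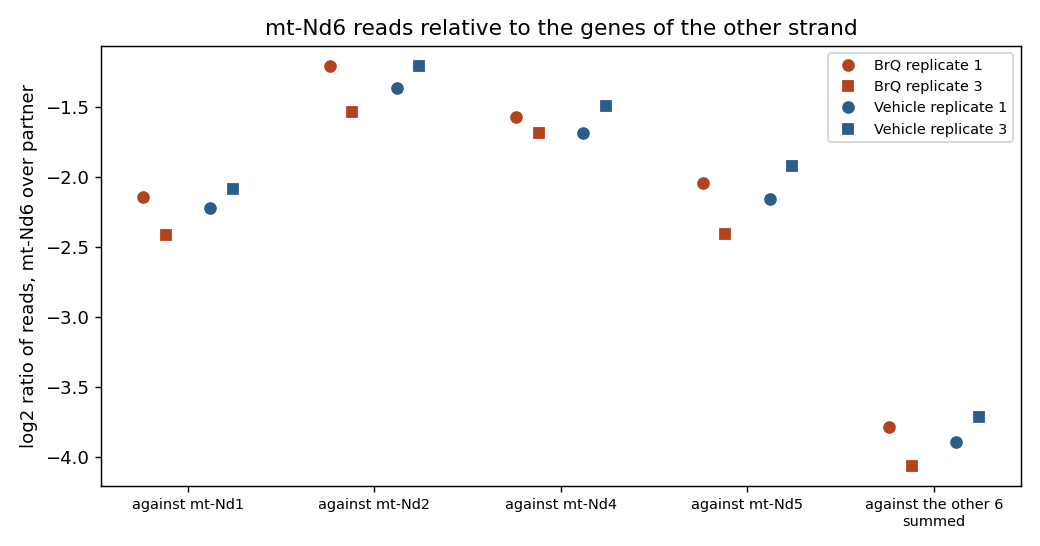
Log2 ratio of mt-Nd6 reads to those of each of the 4 abundant mt-Nd genes of the other strand, and to the other 6 summed, in each of the 4 libraries. The groups overlap in each ratio shown, and BrQ replicate 3 has the lowest mt-Nd6 in each.

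The 7 genes had similar profiles over the libraries. The largest distance of any of them from their mean profile (the Euclidean distance between centred log2 CPM values over 4 libraries) was 0.31, for mt-Nd4l. Among 5656 other features with at least 10 CPM, mt-Cytb, the mitochondrial subunit of complex III, was the nearest mitochondrial feature and the nearest but 2 of all, at a distance of 0.17. The transfer RNA genes mt-Tp, mt-Ta and mt-Tq followed at 0.23, 0.34 and 0.37, and mt-Co1 at 0.40. Of the 20 nearest features 2 were mitochondrial, so most of the rows nearest in profile were not. The next mitochondrial feature, mt-Ta, stood at rank 36 of the 5656.

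The nuclear partners of the mt-Nd proteins could be followed only in part. Of the 37 nuclear subunits, 14 were tested, with a median log2 fold change of -0.56. Of these 14, 7 were called lower and 2 higher by edgeR, where 22.2% of all features tested were called lower and 23.6% higher. Ndufv1, which binds NADH and FMN, was the most read, at 402 CPM in BrQ and 772 CPM in Vehicle (log2 fold change -0.94 ± 0.14 (SE), adjusted p = 0.000740, edgeR). Ndufb6, a membrane arm subunit, was at 99.8 CPM in BrQ and 127 CPM in Vehicle and was not called (-0.34 ± 0.15, adjusted p = 0.0879, edgeR). Of 14 assembly factors, 4 were tested and 3 were called lower, among them Ndufaf4 (-0.68 ± 0.17, adjusted p = 0.0100, edgeR). Since nuclear names may not sit on the reads of their genes, these values describe rows of the tables, and Ndufv1, Ndufb6 and Ndufaf4 were picked after their values were seen.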

How the data were processed

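Paired-end libraries were made from total RNA of integrity number over 8, per the labels' protocols. HISAT2 2.1.0, HTSeq 0.11.2, Trim Galore 0.6.2 and mm10 are named in the submitters' processing notes, which give no annotation release or strand setting. The authors deposited raw counts per gene ID, with 5 closing rows that name no gene; these held 87.0% to 89.0% of all read rows and were left out of library sizes and tests. Within groups, libraries differed by more than sampling noise (chi-square per degree of freedom 12.4 in BrQ, 26.6 in Vehicle).

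Titles gave each sample's group and replicate number. Counts were tested with edgeR 4.0.16 (quasi-likelihood, filterByExpr, TMM, all 4 libraries, group only) in R 4.3.3, with Benjamini-Hochberg adjustment over 10223 features and a threshold of 0.05. SEs were taken from the fold change and its F statistic. Shares and ratios had exact permutation tests. The same edgeR steps were also run on counts simulated with a single fixed spread, unlike the spread in these libraries. They recovered 63 of 100 2-fold changes and 90 of 100 4-fold changes, with 8 false calls among 161. Nuclear copies were sought with blastn 2.17.0 among GENCODE M21 transcripts (GRCm38), and the sequences printed come from the same file. Alternatives were other scalings and filters, legacy edgeR, DESeq2 1.42.0, limma 3.58.1 voom, a replicate block and each library left out. Named features were the 7 genes and the 5 mitochondrial features nearest in profile. Members and lists were chosen with earlier results of these data known. With 2 mice a group, p-values reflect only how these 4 mice vary.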

Additional observations from a re-analysis of the deposited data

How the results depend on the processing

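No log2 fold change of an mt-Nd gene changed sign under any alternative. With a library left out the values ran from -1.79 to -0.91 for mt-Nd1, -1.82 to -0.97 for mt-Nd2 and -1.77 to -0.76 for mt-Nd3. They ran from -1.83 to -1.01 for mt-Nd4, -2.22 to -1.26 for mt-Nd4l, -1.68 to -0.91 for mt-Nd5 and -1.95 to -0.94 for mt-Nd6. With no low count filter 2 mt-Nd genes were called, against 11.8% of the 21036 features in that fit. There mt-Nd1 (-1.36), mt-Nd3 (-1.30), mt-Nd4 (-1.43), mt-Nd4l (-1.76) and mt-Nd6 (-1.48) lost the call. With library size from mitochondrial reads, of which these genes are a part, 0 were called (unadjusted 0, edgeR), against 49.6% of all features. The values were mt-Nd1 -0.12, mt-Nd2 -0.16, mt-Nd3 -0.061, mt-Nd4 -0.21, mt-Nd4l -0.53, mt-Nd5 -0.064 and mt-Nd6 -0.24. All 7 kept the call under the other alternatives that used all 4 libraries. In those, between 38.0% (DESeq2) and 59.7% (100 reads in 2 libraries) of the features tested were called in either direction. Without mt-Co1 in the denominator the difference in share turned to 0.346 points for mt-Nd1, 0.00203 for mt-Nd3, 1.05 for mt-Nd5 and 0.551 for the mt-Nd genes together. Leaving out a library put the mt-Nd3 share difference between -0.00246 and 0.00107 points, and the difference in the log2 ratio of mt-Nd6 to the other 6 between -0.26 and 0.019; the cause was not tested. Same-numbered libraries are not stated to be paired (correlation of their deviations -0.12). A replicate block called 7 of 7 mt-Nd genes and 4190 features in all, against 4676 without it, and crossed numbers called 7 and 5284. The counts of mt-Nd3 and mt-Nd4l, 69 to 435 reads, limit their precision.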
